A study of Rattus norvegicus with 28 samples.

Results

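The 10 genes described here are known to respond to glucocorticoids and were followed across 28 striatal RNA-seq libraries of male rats. They were Nr3c1, Fkbp5, Tsc22d3, Sgk1, Zbtb16, Sult1a1, Fam107a, Cdkn1a, Pdk4 and Errfi1, taken by symbol, and all 10 were among the 39538 genes of the deposited expression table. The members were chosen from values of these same libraries, namely their levels in the 4 groups and their correlation with each other within groups. Their levels, changes and mutual correlations are therefore a description, without a test.

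Glucocorticoids such as corticosterone enter cells and bind the glucocorticoid receptor, encoded by Nr3c1, which waits in the cytosol in a complex with heat shock protein 90. The loaded receptor moves to the nucleus, where it binds inverted repeats of a short core motif and changes the transcription of nearby genes. In the brain the hormone follows a daily rhythm and rises with stress, and many of its target genes are transcribed in astrocytes, oligodendrocytes and endothelium as well as in neurons.

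All groups were striatum of male rats labelled 12 weeks post injury, the naive rats included. Wild-type (wt) rats were naive (8 libraries) or had a right sciatic nerve crush of 30 seconds (6 libraries). Transgenic (TG) rats, with the genotype label {delta}ETorA and described as a model of DYT-TOR1A dystonia, were naive (8 libraries) or had the same crush (6 libraries). The promoter of the transgene, the ages of the rats and the hour of sampling were not given in the sources used here, and the labels do not tell whether naive rats had a sham operation. Nothing beyond a number per library says that libraries came from separate animals, so p-values measure only the spread between libraries. Library names below give the group and that number.

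Levels are given as RPM, reads per 1000000 reads assigned to genes, which is not divided by gene length and is compared only within a gene. Assigned reads ranged from 29151455 to 38407359 per library, and the members rested on at least 61 reads (Pdk4) and at most 36847 reads (Fam107a) in a library. The human TOR1A transcript was at 102 to 144 RPM in the TG libraries and at most 0.972 RPM in the wt libraries. Its level thus matched the genotype label in all 28 libraries, but counts per gene do not show which form of TOR1A was read. Each of the 17 spiny neuron markers was read in all groups, and their summed level ranged from 7984 RPM (wt naive 199) to 15840 RPM (wt crush 205). Cortical Slc17a7 was above 20 RPM in wt naive 197, 199 and 202, TG naive 190 and TG crush 220. In bulk tissue, fewer cells of a type and less RNA per cell cannot be told apart.

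The crush comparisons are described first. Cdkn1a, Fam107a and Sult1a1 had lower means after crush in both genotypes, while Fkbp5, Tsc22d3, Errfi1 and Nr3c1 had log2 changes of only -0.07 to 0.18 in the 4 comparisons of groups. Sgk1 had a higher mean after crush in both genotypes, by 0.19 (SE 0.18) and 0.18 (SE 0.18), each about as large as its error. In the comparison of crush and naive TG rats 1 of the 10 members, Cdkn1a, was called at an adjusted p under 0.05 (limma, Benjamini-Hochberg over 18222 genes), against 3.08% of all genes tested. No member was called for crush in wt rats, where 0.159% of all genes were called, for TG against wt in naive rats (0.0329%), for TG against wt in crush rats (0.00549%) or for the interaction of genotype and crush (0.00549%). Since the rule used these groups, nothing is read from those counts.

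**Figure D1:**
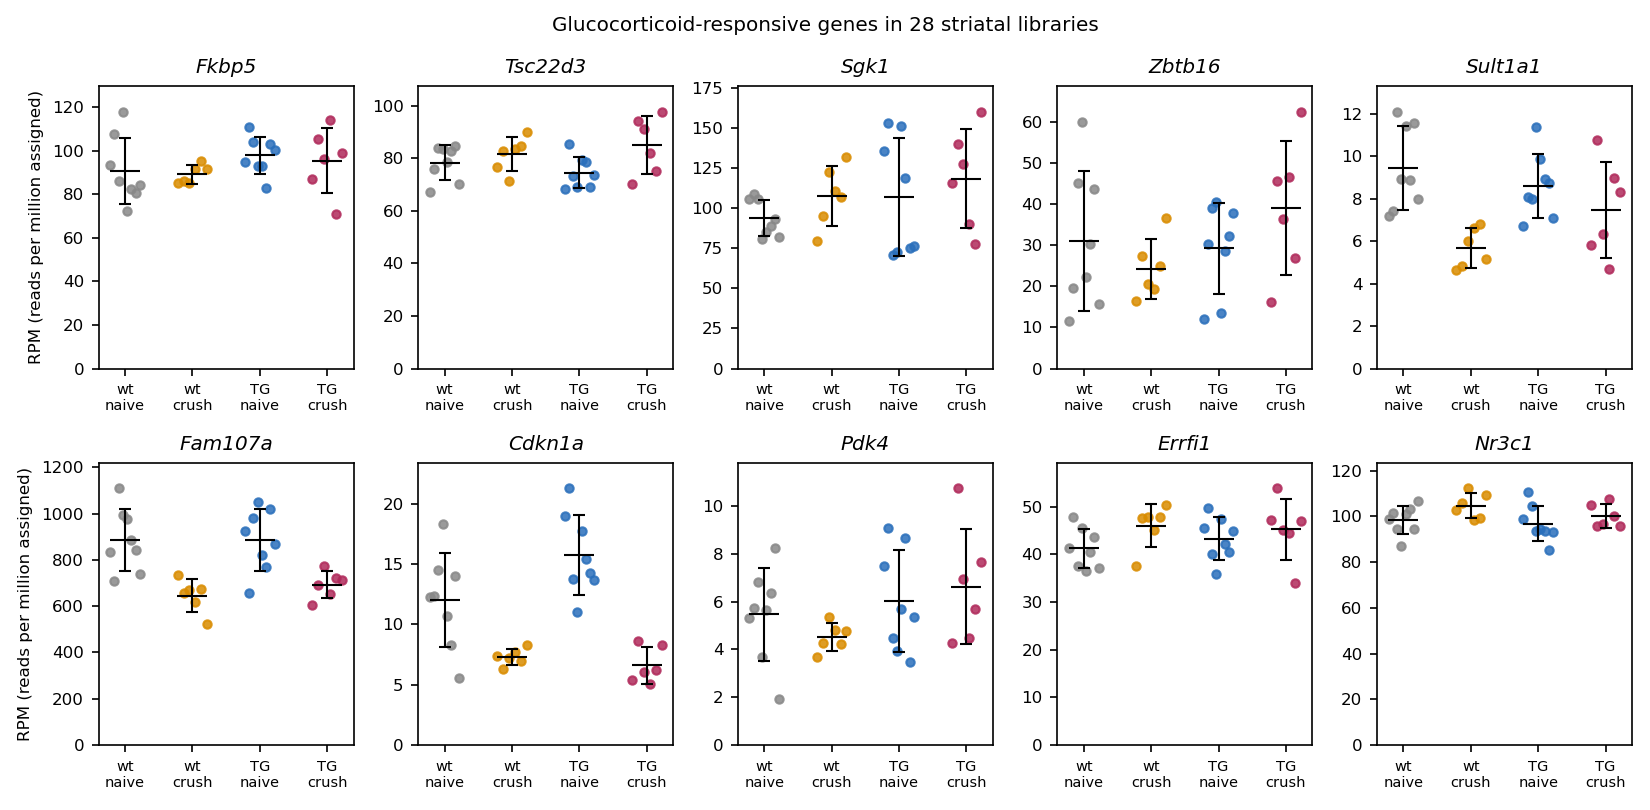
RPM of each of the 10 members in every library (y axis, linear, from 0) by group (x axis), where points are single libraries and bars are group means with SD. Cdkn1a of the TG crush libraries lies at 5.05 to 8.66 RPM, all below the TG naive libraries at 11.02 to 21.3 RPM.

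The receptor gene itself varied least. Nr3c1 (chromosome 18, 31728373 to 32704022, minus strand, Rnor_6.0) was at 87.0, 100.1 and 107 RPM (lowest, median and highest of 8) in wt naive rats and at 98.4, 104 and 112 RPM in wt crush rats. In TG naive rats it was at 85.5, 94.1 and 111 RPM, and in TG crush rats at 95.7, 98.5 and 108 RPM. The ranges of all 4 groups overlapped, with log2 changes after crush of 0.09 (SE 0.05) in wt and 0.05 (SE 0.05) in TG rats. Within groups its SD on the log2 scale was 0.0927, higher than that of 26.2% of 1912 genes of similar level (within 1.5 times in mean RPM).

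Fkbp5 encodes a co-chaperone of heat shock protein 90 that lowers the affinity of the receptor for its hormone, and its induction by the receptor forms a feedback loop. The gene (chromosome 20, 7976704 to 8097290, minus strand) was at 72.1, 85.2 and 118 RPM (lowest, median, highest) in wt naive and at 84.9, 88.7 and 95.4 RPM in wt crush rats. TG naive rats had 82.8, 97.6 and 111 RPM and TG crush rats 70.97, 97.7 and 114 RPM. The groups overlapped throughout, and the log2 changes after crush were -0.01 (SE 0.09) in wt and -0.05 (SE 0.09) in TG rats. The highest library was wt naive 198 and the lowest TG crush 223.

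Tsc22d3 encodes GILZ, a leucine zipper protein that carries anti-inflammatory effects of the hormone. On chromosome X (111884285 to 111944693, minus strand), it was read at 67.2, 80.5 and 84.6 RPM in wt naive, 71.4, 83.2 and 89.8 RPM in wt crush, 68.4, 73.3 and 85.6 RPM in TG naive and 70.4, 86.7 and 97.7 RPM in TG crush rats. TG crush 219, 220 and 226, at 91.2 to 97.7 RPM, exceeded every library of the other groups, while TG crush 214, 222 and 223 lay among the naive values. Its log2 change after crush was 0.18 (SE 0.07) in TG and 0.06 (SE 0.07) in wt rats.

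Sgk1, the serum- and glucocorticoid-regulated kinase that acts on ion channels and transporters, lies on chromosome 1 (24185451 to 24302309, minus strand). It was at 81.0, 91.2 and 109 RPM in wt naive, 79.5, 109 and 132 RPM in wt crush and 77.5, 121 and 160.2 RPM in TG crush rats. The 8 TG naive libraries left a gap: 187, 188, 191 and 192 were at 119 to 153 RPM, and 189, 190, 193 and 194 at 70.98 to 76.3 RPM. No label given here tells these TG naive libraries apart. The TG naive mean of 107 ± 36.8 RPM (SD, n = 8) thus describes no library, and all 4 groups overlapped.

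Errfi1 encodes MIG6, an inhibitor of the epidermal growth factor receptor. On chromosome 5 (167951564 to 167966011, plus strand), it was at 36.4, 40.9 and 47.8 RPM in wt naive, 37.5, 47.7 and 50.3 RPM in wt crush, 35.9, 43.5 and 49.7 RPM in TG naive and 34.1, 46.0 and 53.9 RPM in TG crush rats. The groups overlapped, and the log2 changes after crush were 0.16 (SE 0.08) in wt and 0.06 (SE 0.08) in TG rats.

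Zbtb16, which encodes the zinc finger transcription factor PLZF, spread most within groups. It lies on chromosome 8 (52980226 to 53146765, minus strand) and was at 11.5, 26.4 and 60.1 RPM in wt naive and 16.5, 22.8 and 36.7 RPM in wt crush rats. In TG naive rats it was at 12.1, 31.4 and 40.7 RPM, and in TG crush rats at 16.2, 41.0 and 62.6 RPM. Its highest library (TG crush 226) held 5.45 times the level of its lowest (wt naive 195), with every group holding both low and high libraries. The within-group SD of 0.675 on the log2 scale exceeded that of 99.8% of 3343 genes of similar level. The change after crush was -0.20 (SE 0.34) in wt and 0.41 (SE 0.34) in TG rats on the log2 scale, neither much beyond its SE, and their difference was 0.61 (SE 0.48).

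Pdk4 encodes the kinase that switches off pyruvate dehydrogenase and so spares glucose. The gene (chromosome 4, 30546772 to 30556774, minus strand) was at 1.91, 5.68 and 8.22 RPM in wt naive, 3.67, 4.51 and 5.37 RPM in wt crush, 3.48, 5.53 and 9.09 RPM in TG naive and 4.27, 6.31 and 10.7 RPM in TG crush rats. The groups overlapped, with wt naive 202 lowest and TG crush 219 highest. Large spread within groups was shared by Pdk4 (SD 0.465, above 97.1% of genes of similar level), Sgk1 (0.358, above 98.5%) and Cdkn1a (0.349, above 95.2%). Correlation with library depth was weak for all members, from -0.31 (Nr3c1) to 0.38 (Fam107a) over 28 libraries.

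Cdkn1a encodes p21, an inhibitor of cyclin-dependent kinases that stops the cell cycle. On chromosome 20 (6348422 to 6358864, plus strand), it was at 5.58, 12.3 and 18.3 RPM in wt naive and 6.33, 7.33 and 8.26 RPM in wt crush rats. In TG rats it was at 11.02, 14.9 and 21.3 RPM in the naive and 5.05, 6.13 and 8.66 RPM in the crush libraries. The TG groups did not overlap, as for 0.73% of all genes tested. In wt rats, naive 202 (5.58 RPM) lay below every crush library and the other 7 naive libraries lay above them all. The log2 change after crush was -1.20 (SE 0.18) in TG and -0.61 (SE 0.18) in wt rats, with a difference between the genotypes of -0.58 (SE 0.25). TG against wt, the log2 difference was 0.43 (SE 0.16) in naive and -0.16 (SE 0.19) in crush rats. The TG naive libraries enter both the crush comparison of TG rats and the naive comparison of genotypes. Under every other setting tried, single libraries left out included, the TG change after crush stayed between -1.27 and -1.04.

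Sult1a1 encodes a sulfotransferase that conjugates phenols. It lies on chromosome 1 (198100586 to 198104106, minus strand) and was at 7.19, 8.92 and 12.1 RPM in wt naive and 4.64, 5.59 and 6.81 RPM in wt crush rats. In TG rats it was at 6.72, 8.41 and 11.4 RPM in the naive and 4.67, 7.32 and 10.8 RPM in the crush libraries. The wt groups did not overlap, as for 0.648% of all genes tested, whereas the TG groups did. The log2 change after crush was -0.67 (SE 0.15) in wt and -0.22 (SE 0.15) in TG rats, with a difference of 0.45 (SE 0.21).

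Fam107a, also called DRR1, encodes a stress-induced protein that bundles actin filaments. The gene (chromosome 15, 18399145 to 18415959, plus strand) was at 708, 865 and 1110.0 RPM in wt naive and 523, 663 and 733 RPM in wt crush rats. In TG rats it was at 659, 898 and 1051 RPM in the naive and 605, 702 and 772 RPM in the crush libraries. Only wt naive 196 reached into the range of the wt crush libraries, and TG naive 188 and 192 into that of the TG crush libraries. The log2 change after crush was -0.45 (SE 0.10) in wt and -0.35 (SE 0.10) in TG rats, with a difference of 0.10 (SE 0.14).

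**Figure D2:**
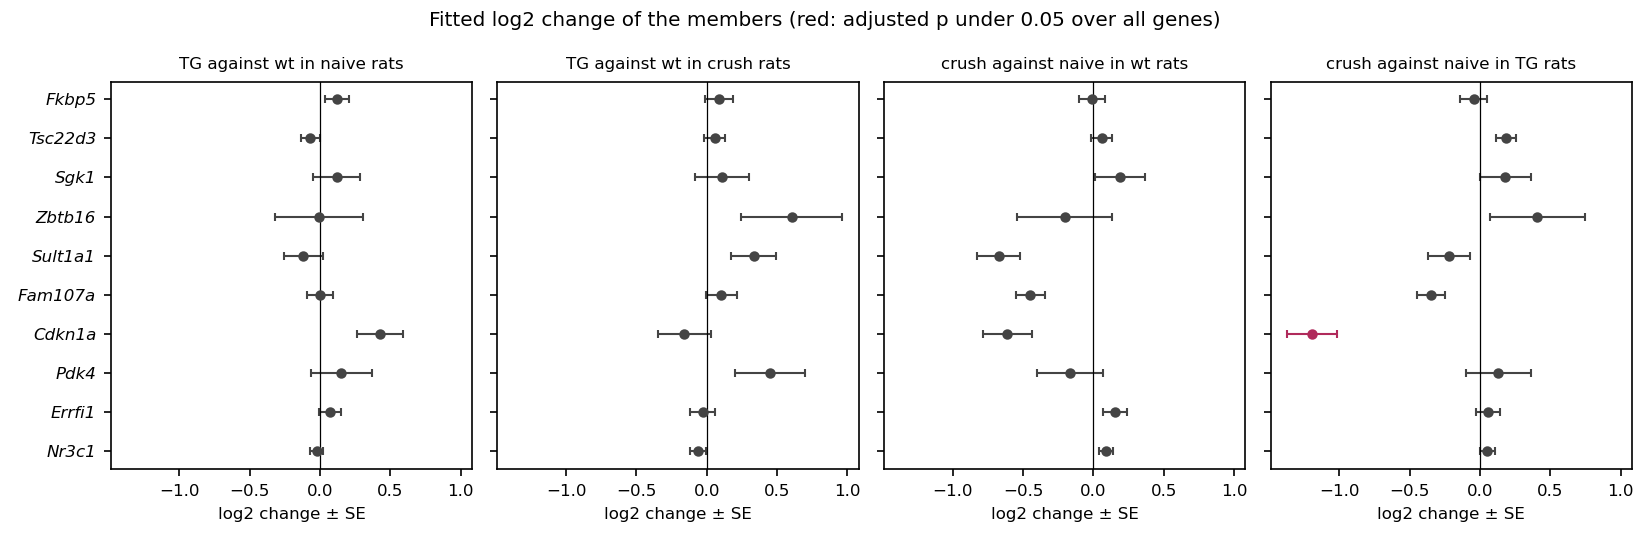
Fitted log2 changes of the 10 members (x axis, points with SE; y axis, gene) in each comparison, from 1 limma fit on all 28 libraries. Cdkn1a after crush in TG rats (-1.20, SE 0.18) is the 1 value drawn as called, and Sult1a1 and Fam107a lie below 0 after crush in both genotypes.

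Sult1a1 and Fam107a were the 2 members whose promoter windows held letters like a receptor binding site, and both are shown. RefSeq windows (GRCr8, 250 bases before to 50 after the start) were matched for 9 of the 10 members, all but Zbtb16. The core motif searched, on both strands, was AGAACA, present in 20.7% of 33469 windows and in windows of these 2 members. Its inverted repeat, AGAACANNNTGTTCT, contains the core motif and was found with at most 1 mismatch in 0.215% of windows and in none of the members. With at most 2 mismatches it was in 1.87% of windows and in the same 2 members. The window of Cdkn1a, which like these 2 had lower means after crush in both genotypes, held neither motif. The stretches below are on the strand of the gene, 5′ to 3′, with the repeat of 2 mismatches in capitals. For Sult1a1 the stretch is chr1:190706147-190706241 (minus strand) with the repeat at -89 to -75 from the start, and for Fam107a chr15:19046331-19046424 (plus strand) with the repeat at -211 to -197.
Sult1a1: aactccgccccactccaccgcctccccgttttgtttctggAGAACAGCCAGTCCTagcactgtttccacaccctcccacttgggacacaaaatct
Fam107a: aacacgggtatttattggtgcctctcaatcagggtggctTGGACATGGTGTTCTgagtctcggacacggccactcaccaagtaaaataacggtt
A match is a description of letters and no evidence of binding, and enhancers outside these windows were not searched. Of 29 other glucocorticoid-responsive genes with a window, 2 (Gjb6 and Arhgef3) held the core motif and none the repeat with at most 2 mismatches.

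Marker levels of other cell types moved beside these values. The summed level of the 12 astrocyte markers was 5899 to 8225 RPM in wt naive, 5750 to 6235 RPM in wt crush, 6489 to 7566 RPM in TG naive and 5564 to 7831 RPM in TG crush rats, and no marker was at 0. None of the 12 was called after crush in either genotype (limma). At an unadjusted p under 0.05 were 6 of 12 (wt) and 4 of 12 (TG), against 20.8% and 19.3% of all genes tested. The median log2 changes of the 12 were -0.17 in wt and -0.15 in TG rats. With the mean astrocyte level as a covariate, an alternative chosen after seeing the data, the change of Sult1a1 was -0.32 in wt and 0.00 in TG rats, and that of Fam107a -0.31 and -0.26. The change of Cdkn1a was then -0.58 in wt and -1.18 in TG rats, close to the values without it. Fkbp5 moved away from 0, to -0.23 in wt and -0.18 in TG rats from -0.01 and -0.05. With that covariate Zbtb16 (0.07) and Pdk4 (0.01) in wt rats and Errfi1 (-0.03) in TG rats changed sign, from -0.20, -0.17 and 0.06. Spiny neuron markers summed to 7984 to 15702 RPM in wt naive and 13752 to 15840 RPM in wt crush rats, against 8981 to 14511 RPM in TG naive and 8568 to 15721 RPM in TG crush rats. Spiny neuron markers had median log2 changes after crush of 0.34 (wt) and -0.04 (TG), with 17 and 6 of 17 above 0 and none called. At an unadjusted p under 0.05 (limma) were 12 of 17 in wt and 1 of 17 in TG rats, against 20.8% and 19.3% of all genes. After crush in TG rats 3 of 11 endothelium and 1 of 10 microglia markers were called lower (limma), against 3.08% of all genes called. None of these was called in wt rats, where 7 of 10 microglia markers (4 in TG rats) were at an unadjusted p under 0.05. The part of cell composition in the changes of the members was not tested further.

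Libraries also differed in the level of 17 clock genes, which in tissue follow the hour of the day. Summed, they were at 1426 to 1866 RPM in wt naive against 1891 to 2047 RPM in wt crush, and at 1398 to 1552 RPM in TG naive against 1708 to 2165 RPM in TG crush rats. Crush and naive libraries did not overlap in either genotype. After crush 5 of 17 clock genes were called higher in wt rats (limma), against 0.159% of all genes called. In TG rats 12 were called higher and 3 lower, against 3.08% of all genes called. Between TG and wt naive rats 2 of 17 were called lower (limma), against 0.0329% of all genes called in either direction. In that comparison 10 of 17 were at an unadjusted p under 0.05, against 4.98% of all genes. None was called between genotypes in crush rats, and 1 was called higher for the interaction, each against 0.00549% of all genes called. A state of the clock that differed between the groups cannot be told apart in these libraries from the crush or the genotype.

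Beyond the 10 members, 34 other genes known to respond to glucocorticoids were read, all above the minimum of 0.5 RPM in at least 6 libraries. After crush in TG rats 1 of them, Per1, a clock repressor that the receptor also induces, was called higher and none lower. Of the 34, 12 were at an unadjusted p under 0.05 (limma), against 19.3% of all genes tested. In wt rats none was called by limma or by limma-voom. There 11 of the 34 were at an unadjusted p under 0.05 (limma), against 20.8% of all genes. The median log2 change of the 34 was -0.08 in wt and 0.01 in TG rats, against -0.03 and -0.01 over all genes tested, with 14 and 18 of 34 above 0. In neither comparison of genotypes, nor for the interaction, was any of the 34 called (limma and limma-voom), with 2, 2 and 1 at an unadjusted p under 0.05, against 4.98%, 8.06% and 7.49% of all genes.

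Per1 is in the list of clock genes too. It was at 56.1, 65.8 and 89.97 RPM (lowest, median, highest) in wt naive, 87.2, 91.9 and 98.4 RPM in wt crush, 51.5, 63.2 and 89.8 RPM in TG naive and 63.5, 91.3 and 95.7 RPM in TG crush rats. In wt rats naive 198 alone reached into the crush range, and the TG ranges overlapped. Its log2 change was 0.40 (SE 0.11, adjusted p = 0.0406) in TG and 0.42 (SE 0.11, adjusted p = 0.0812) in wt rats by limma, so the size was the same although it passed in 1 genotype. The call in TG rats was lost without any 1 of 7 TG naive libraries (all but 187) or 5 TG crush libraries (all but 223), and adjusted p ranged from 0.00934 to 0.123 when single libraries were left out.

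Other responsive genes had changes on both sides of 0. Gjb6, an astrocyte connexin that is also in the astrocyte list, had a log2 change of -0.32 (SE 0.08, adjusted p = 0.0721, limma) in wt and -0.25 (SE 0.08, adjusted p = 0.0838) in TG rats. Angptl4, a secreted inhibitor of lipoprotein lipase, was at -0.35 (SE 0.13) in both. The zinc-binding metallothionein Mt2A was at -0.43 (SE 0.13, adjusted p = 0.0545, limma) in TG and -0.16 (SE 0.13) in wt rats. Dusp1, a phosphatase of MAP kinases, was at 0.35 (SE 0.14) in wt and 0.24 (SE 0.14) in TG rats, and the transcription factor Klf9 at 0.28 (SE 0.12) and 0.15 (SE 0.12). These 5 did not pass and were chosen after their values were seen.

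**Figure D3:**
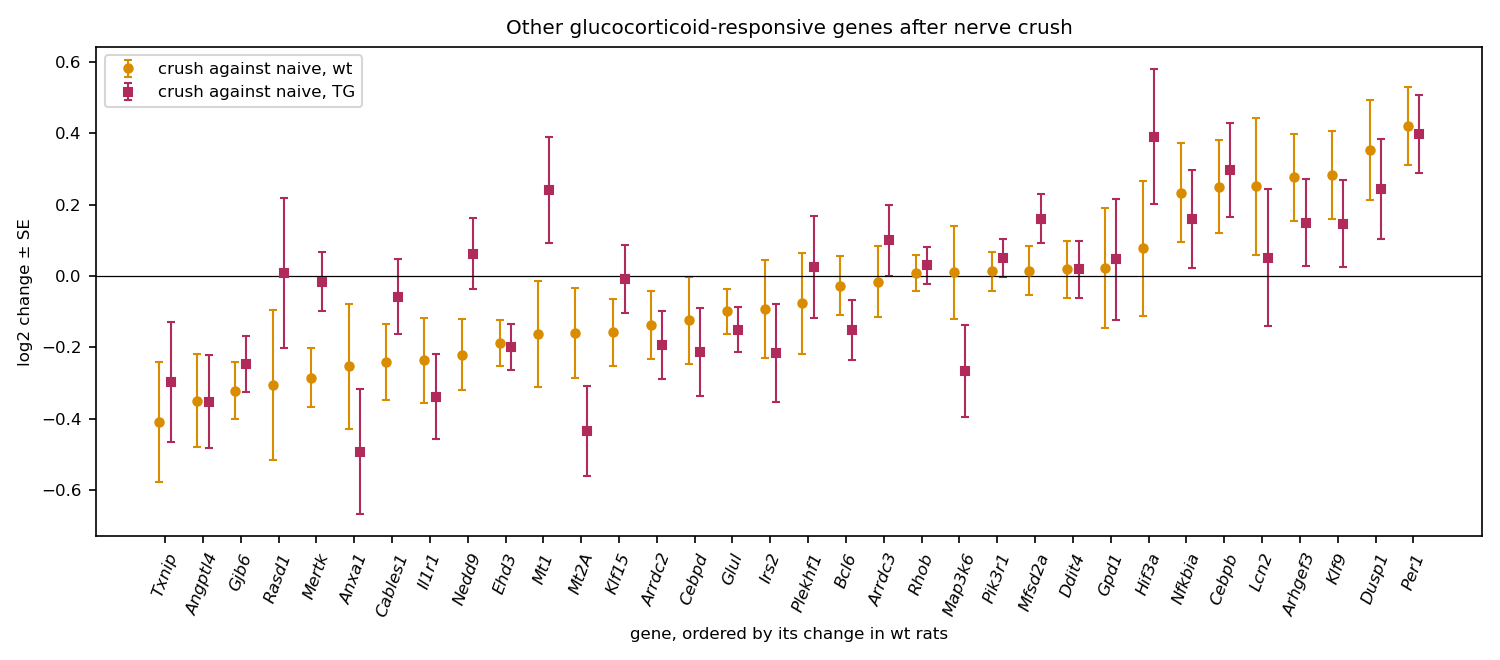
Log2 change after crush with its SE (y axis) for the 34 other glucocorticoid-responsive genes (x axis, ordered by the change in wt rats), in wt and in TG rats. Values lie on both sides of 0, and Per1 is among the highest in both genotypes (0.42 and 0.40).

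The receptor's own machinery showed no call. Of 22 genes of receptor chaperones, coregulators and steroid handling, 20 were tested, and Hsd11b2 and Serpina6 stayed below the minimum (at most 0.267 RPM). None of the 20 was called in any of the 5 comparisons (limma and limma-voom), with 0 to 2 at an unadjusted p under 0.05 in each, against 4.98% to 20.8% of all genes. Nr3c2, the mineralocorticoid receptor that binds the same hormone, averaged 48.4 ± 4.97 RPM in wt naive, 45.8 ± 6.05 in wt crush, 47.7 ± 3.38 in TG naive and 50.6 ± 7.62 in TG crush rats (SD, n = 8, 6, 8 and 6). Hsd11b1, the enzyme that regenerates active hormone inside cells, averaged 39.6 ± 4.49, 36.8 ± 4.55, 40.4 ± 8.70 and 38.7 ± 4.11 RPM in the same order. Both overlapped between all groups.

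Within groups the members did not move as 1 block. Deviations of log2 (RPM + 0.5) from the group means were correlated over 28 libraries for each of the 45 pairs, as a description without p, since all pairs share libraries. The median Pearson r was 0.15, with 29 of 45 pairs above 0, 8 at 0.5 or more and 2 at -0.5 or less. Inside the groups the median was 0.209 (wt naive, n = 8), 0.254 (wt crush, n = 6), 0.134 (TG naive, n = 8) and 0.419 (TG crush, n = 6). In all, 12 pairs were positive and 4 negative in all 4 groups.

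The 3 pairs of highest r joined Sgk1 with Errfi1, Cdkn1a with Pdk4 and Sgk1 with Pdk4. Sgk1 and Errfi1 had r = 0.69 (Spearman 0.67, and 0.60 without the 2 libraries farthest from the median). Inside the crush groups that r was 0.84 (wt, n = 6) and 0.79 (TG, n = 6). It was 0.80 in TG naive but only 0.28 in wt naive rats (n = 8 each). Cdkn1a and Pdk4 had r = 0.65 (Spearman 0.61), positive in every group and 0.92 in TG crush rats. Sgk1 and Pdk4 had r = 0.63 (Spearman 0.70). These kinase, p21 and MIG6 genes thus tended to be high in the same libraries, although those of Sgk1 include the gap among TG naive libraries.

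Zbtb16 and Tsc22d3 came next, also at r = 0.63 (Spearman 0.61, and 0.49 without the 2 farthest libraries). That r was 0.93 in wt naive, 0.72 in wt crush and 0.88 in TG crush rats but -0.04 in TG naive rats. Sgk1 and Zbtb16, in contrast, had r = -0.20 over all libraries. The actin bundler Fam107a ran against several members, with r = -0.53 for Nr3c1 and -0.50 for Errfi1, both negative in all 4 groups. Nr3c1 was negative with Sult1a1 in all 4 groups too (r = -0.41).

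The correlations of Fkbp5 shifted with the level of spiny neurons. Its r was 0.33 with Zbtb16 and 0.28 with Tsc22d3, and with the average of the 17 markers of spiny neurons removed these became 0.71 and 0.61. Its r with Errfi1 moved the other way, from 0.60 to 0.34, and that with Sgk1 stayed near 0 (0.15 and 0.04). Its r with Sult1a1 changed sign, from -0.33 to 0.34, and that with Nr3c1 went from -0.11 to -0.44. Pdk4 and Errfi1 went from 0.43 to 0.71. Over all 45 pairs the median went from 0.15 to 0.26.

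**Figure D4:**
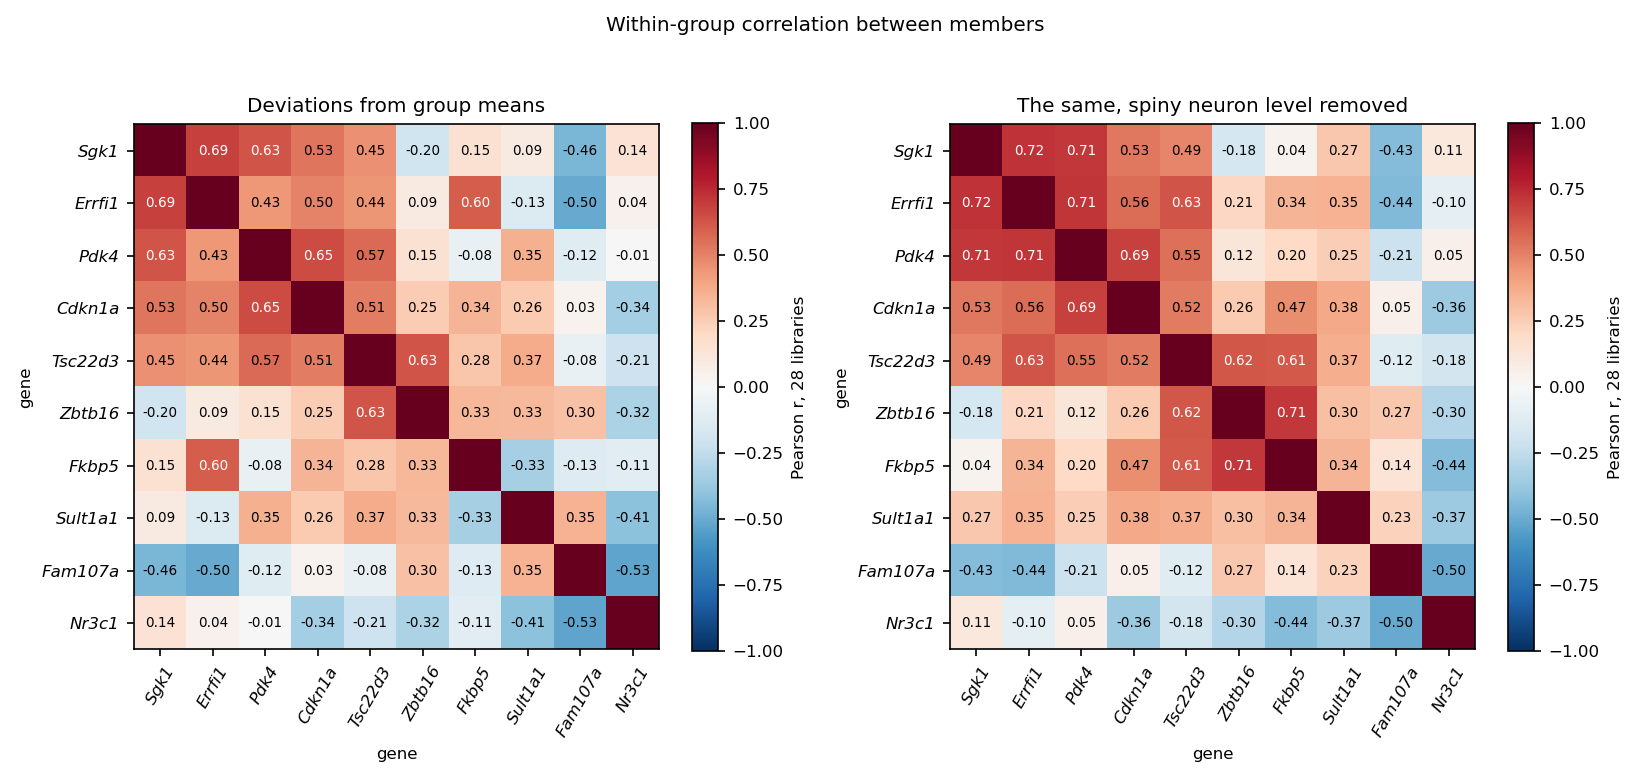
Pearson r between members (both axes list the genes, color gives r) of log2 deviations from group means over 28 libraries, as measured and with the spiny neuron level removed. The pair Fkbp5 and Zbtb16 goes from 0.33 to 0.71, and Fam107a stays negative with Nr3c1 in both.

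Each member was then set beside the mean level of 12 gene lists in the same libraries, 120 relations in all. Two-sided permutation tests were made within groups (100000 resamples, Benjamini-Hochberg over the 120). Members and lists were chosen with earlier results of these data known, so the p-values describe these libraries and are no independent support. Fkbp5 followed the spiny neuron level (r = 0.77, permutation adjusted p = 0.0156; Spearman 0.64, adjusted p = 0.0294) and had r = 0.65 without the 2 libraries farthest from the median. With astrocyte markers it had r = -0.71 (permutation adjusted p = 0.0182; Spearman -0.64, adjusted p = 0.0294). Sult1a1 did the reverse, with r = 0.72 for astrocyte markers (permutation adjusted p = 0.0174; Spearman 0.72, adjusted p = 0.0286; 0.70 without the 2 farthest) and -0.65 for spiny neuron markers (permutation adjusted p = 0.0184; Spearman -0.65, adjusted p = 0.0286). Fkbp5 and Sult1a1 therefore tracked opposite cell type levels, which is a relation across libraries of mixed tissue and does not place either gene in a cell type.

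In all 14 of the 120 relations passed by Pearson's r. Fkbp5 also followed the clock level (r = 0.70, permutation adjusted p = 0.0184; Spearman 0.57, adjusted p = 0.0443), with r = 0.46 without the 2 libraries farthest from the median. It ran against microglia markers (r = -0.68, permutation adjusted p = 0.0182; Spearman -0.64, adjusted p = 0.0286; -0.56 without the 2 farthest). The spiny neuron, astrocyte, microglia and clock levels come from the same libraries, and their separate parts in Fkbp5 were not tested. Errfi1 passed by Pearson's r only, with spiny neuron markers (0.55, permutation adjusted p = 0.0489), endothelium (-0.58, adjusted p = 0.0390) and microglia (-0.57, adjusted p = 0.0390). The Spearman values of Errfi1 (0.51, -0.46 and -0.48) missed the threshold, with permutation adjusted p of 0.0921, 0.126 and 0.117, and r was 0.37, -0.38 and -0.39 without the 2 farthest libraries. Nr3c1 ran against choroid plexus markers (r = -0.58, permutation adjusted p = 0.0390; Spearman -0.60, adjusted p = 0.0286; -0.50 without the 2 farthest), whose summed level was 3.82 RPM (wt naive 196) to 139 RPM (TG naive 194).

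The 34 other responsive genes, taken as a mean level, separated the members. This list too was chosen with earlier results of these data known, so the p-values below are no independent support. Tsc22d3 followed that level with r = 0.65 (permutation adjusted p = 0.0239; Spearman 0.65, adjusted p = 0.0286; 0.52 without the 2 farthest). Cdkn1a did with r = 0.63 (permutation adjusted p = 0.0182; Spearman 0.61, adjusted p = 0.0352; 0.62 without the 2 farthest). For Pdk4 r was 0.63 (permutation adjusted p = 0.0182) and Spearman's value 0.57 (adjusted p = 0.0512), which missed the threshold. The receptor gene Nr3c1 ran against the level, with r = -0.55 (permutation adjusted p = 0.0239; Spearman -0.62, adjusted p = 0.0286; -0.54 without the 2 farthest).
Sult1a1 (r = 0.55), Zbtb16 (0.46), Sgk1 (0.45), Errfi1 (0.35), Fam107a (0.14) and Fkbp5 (0.02) did not pass. Fkbp5, the co-chaperone often read as a marker of hormone action, thus had the r closest to 0 of the 10, though differences between these r were not tested. The spiny neuron level, which Fkbp5 followed (r = 0.77), was not removed for these r.

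**Figure D5:**
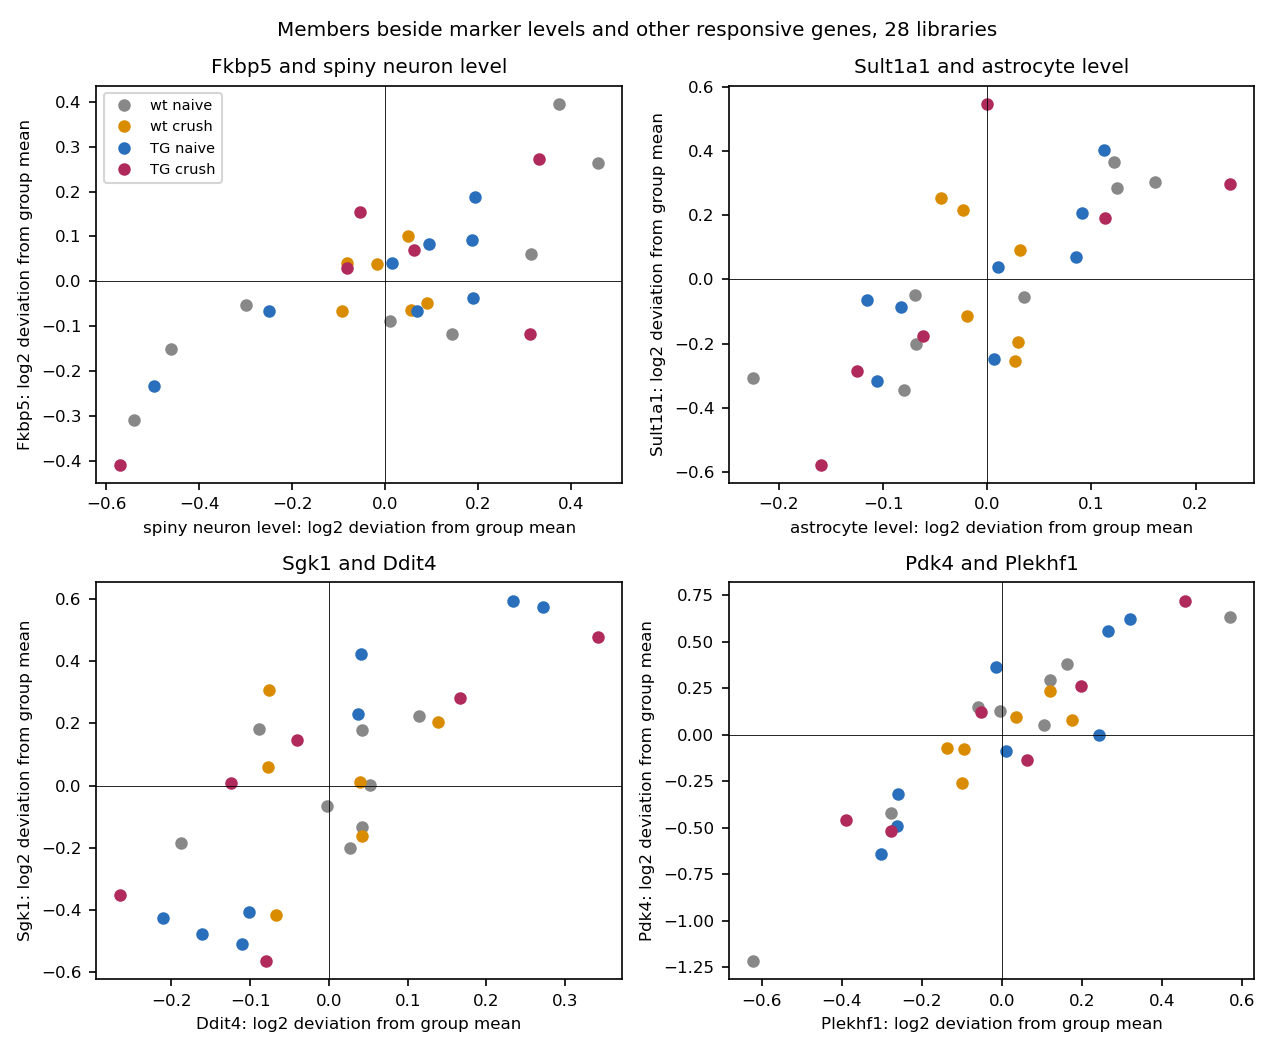
Log2 deviation from the group mean of a member (y axis) against that of a marker level or the other responsive genes (x axis), 1 point per library colored by group. Fkbp5 rises with the spiny neuron level (r = 0.77) and Sult1a1 with the astrocyte level (r = 0.72).

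Genes outside the list were ranked by their r with the mean standardized deviation of the 10 members over 28 libraries, among genes of at least 2 RPM on average. The 12 highest were Gpd1 (0.80), Zbtb39 (0.76), Ddit4 (0.73), Tbc1d14 (0.72), Heatr6 (0.71), Bcl6 (0.70), Dnttip2 (0.69), Bicd2 (0.68), Zfp868 (0.68), Plekhf1 (0.67), Adipor2 (0.66) and LOC100911248 (0.66). Gpd1, Ddit4, Bcl6 and Plekhf1 are among the 34 other responsive genes, and encode a glycerol-3-phosphate dehydrogenase, the mTORC1 inhibitor REDD1, a transcriptional repressor and an endosomal protein. The 3 lowest were Slc5a5 (-0.66), Cd248 (-0.65) and LOC100911932 (-0.65). The last 2 had nearly the same values in the table (mean RPM 2.0516 and 2.0506) and may share reads.

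Single members had closer partners, chosen here after their values were seen. Pdk4 and Plekhf1 had r = 0.92 (Spearman 0.85, and 0.89 without the 2 farthest libraries). Sgk1 was nearest to Ddit4 (0.75; Spearman 0.71), and Tsc22d3 to Gpd1 (0.74; Spearman 0.70). For these 3 members the nearest of the genes with at least 2 RPM on average was one of the 34 other responsive genes. The nearest genes of the other members were not in that list, which was chosen with earlier results of these data known. Fkbp5 was nearest to the autophagy gene Atg16l1 (0.88), Zbtb16 to Myrip (0.78) and Fam107a to the proteoglycan gene Cspg5 (0.82). These are descriptions over 28 libraries that share tissue composition.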

How the data were processed

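RNA of 28 striatal samples was read in single-end reads of 75 nt from a stranded mRNA kit in 2 runs, per the labels' protocols. The run of a library and the strand setting of the counting were not given in the sources used here. Values of genes that overlap another gene on the opposite strand are therefore less certain. The submitters' processing notes name STAR 2.6.1a, featureCounts of Subread 1.6.3, DESeq2 1.22.2 and Rnor_6.0. The authors deposited RPKM per gene span with introns for 39538 genes, and the unit was recorded as other because of decimal commas. RPKM times length in kilobases summed to 1000000 in every library and is called RPM here. These were whole multiples of 1 read (100% of values within a tolerance of 0.02), so whole reads were computed. RPM was used because a minimum on span RPKM removes long genes such as Zbtb16 and Nr3c1.

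One fit in limma 3.58.1 (R 4.3.3) of log2 (RPM + 0.5) on the 4 groups covered 18222 genes with at least 0.5 RPM in at least 6 libraries, with variances that follow the mean. A gene was called where its Benjamini-Hochberg adjusted p was under 0.05. The fit was tested on simulated counts. The members and all lists were chosen with earlier results of these data known. Named were all members, Per1 as the called other responsive gene, Nr3c2, Hsd11b1, and the 12 genes most and 3 least like the members. Called genes of the clock and cell type lists other than Per1 were counted, not named. Other named genes were chosen after their values were seen. Promoter windows came from RefSeq (GRCr8), figures from matplotlib 3.10.9, permutation tests from numpy 2.4.6.

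Alternatives were the deposited RPKM, pseudocounts of 2 and 0.1, no filter, a minimum of 2 RPM in 14 libraries, median-of-ratios rescaling, the compared groups alone, limma-voom on whole reads, the spiny neuron level as a covariate, leaving out the 5 libraries over 20 RPM of Slc17a7, and leaving out each library in turn. The astrocyte covariate, and all alternatives for the machinery list, were added after seeing the data.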

Additional observations from a re-analysis of the deposited data

How the results depend on the processing

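No paired analysis was possible because the groups share no replicate numbers. Of 1969 values of single genes under alternatives, 56 changed sign, none of them called in either fit, and 40 changed their side of the threshold. The sign changes were 39 with 1 library left out, 8 with the astrocyte covariate, 5 with the spiny neuron covariate and 4 with other settings. They included Zbtb16 after crush in wt (-0.20 to 0.07) and Sult1a1 after crush in TG rats (-0.22 to 0.00), both with the astrocyte covariate, and Pdk4 in naive TG against wt rats without wt naive 202 (0.15 to -0.02) and after crush in TG rats without TG crush 219 (0.13 to -0.01). Members called after crush in wt rats went from 0 to 2 with deposited RPKM and with a minimum of 2 RPM in 14 libraries, and to 1 with median-of-ratios rescaling and with the compared groups alone. They were Sult1a1 and, for 2, Fam107a, whose adjusted p was 0.0526 for both in limma. Leaving out single libraries gave 0 to 2 (2 without wt naive 196 or 202 or TG crush 223; 1 without wt crush 203, TG naive 188, TG crush 219 or 222). In TG rats the count of 1 became 2 with deposited RPKM, the minimum of 2 RPM or the spiny neuron covariate, and 1 to 2 without single libraries (2 without wt naive 196 or 197, TG naive 188, TG crush 223 or 226). The other responsive genes called in wt rats went from 0 to 1 with the compared groups alone, and 0 to 3 without single libraries (3 without wt naive 196; 1 without wt naive 198 or TG crush 223). In TG rats their count of 1 became 2 with deposited RPKM, the minimum of 2 RPM or median-of-ratios rescaling, 4 with the spiny neuron covariate, and 0 with no filter, the compared groups alone or the astrocyte covariate. Without single libraries that count was 0 to 4. It was 4 without TG crush 223, 3 without 226, 2 without TG naive 187 or wt naive 199, and 0 without TG naive 189, 191, 192 or 193 or TG crush 214, 219, 220 or 222. Of the machinery genes 1 was called in TG rats with the spiny neuron covariate and 0 to 1 without single libraries (1 without TG naive 187 or TG crush 226). Calls over all genes tested moved with these settings too. In wt rats the 29 calls became 511 without wt naive 196, 128 without TG crush 223 and 58 without wt naive 198. In TG rats the 562 calls became 1306 with the spiny neuron covariate, 1218 without TG crush 223 and 1112 without TG crush 226. They became 123 with the compared groups alone, 371 with no filter and 617 with the astrocyte covariate. Nothing about these genes is therefore read from the counts. The causes were not tested. The median r between members was 0.15 to 0.26 over other settings and 0.136 to 0.248 without single libraries.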
